A study of Mus musculus with 18 samples.

Results

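Most of the genes described here encode nuclear-encoded subunits of the oxidative phosphorylation machinery, measured by RNA sequencing in eosinophils sorted from mouse small intestine. They were chosen by symbol: every gene whose name begins with Nduf followed by a, b, c, s or v, with Uqcr, with Cox and a digit from 4 to 8, or with Atp5, and the genes Sdha, Sdhb, Sdhc and Sdhd. This gave 94 of the 22708 genes in the table. Subunits with other names are not included, so the set of a complex may not be complete. The 94 split into 7 core subunits of complex I, 30 genes named as accessory subunits of complex I (the pseudogene Ndufb4c among them), 8 complex I assembly factors, 4 subunits of complex II, 8 of complex III, 19 of complex IV (Ndufa4 and Ndufa4l2 among them), 17 of complex V, and Cox7a2l, which is an assembly protein of supercomplexes and not a subunit. In each comparison 85 of the 94 had a mean at least 1 above the lowest value of the table and were tested, and 9 did not.

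The samples came from 3 groups of 6 mice, each with 3 females (F1 to F3) and 3 males (M1 to M3), all of strain C57BL/6. The groups were wildtype mice (WT), mice labelled as Ahr knockouts and mice labelled as Ahrr knockouts. Ahr encodes the aryl hydrocarbon receptor, a transcription factor switched on by ligands from diet and microbes, and Ahrr encodes its repressor. The labels give small intestine as the tissue and no age, the sort gate was CD11b+ MHC-II- SiglecF+ SSChi, and RNA was extracted right after sorting. By the study's methods, Ahr-/- mice and their WT controls were neither littermates nor housed together, so genotype and cage cannot be told apart.

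Oxidative phosphorylation takes place in the inner mitochondrial membrane. Complexes I and II pass electrons from NADH and succinate to ubiquinone, complex III passes them on to cytochrome c, and complex IV hands them to oxygen. Complexes I, III and IV pump protons across the membrane, and complex V, the ATP synthase, uses their return to make ATP. Granulocytes are known for a low content of mitochondria, and eosinophils for a higher one than neutrophils, while absorptive and secretory cells of the gut epithelium are rich in them.

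Total counts per sample, recovered from the deposited values, ran from 3842977 to 8149200 in WT, from 6581818 to 10284124 in the samples labelled Ahr-/- and from 8788867 to 12046933 in the samples labelled Ahrr-/-. The 94 genes together took a median of 0.53% of the counts in WT (0.393% to 0.967%), 0.504% in the samples labelled Ahr-/- (0.368% to 0.562%) and 0.775% in the samples labelled Ahrr-/- (0.385% to 1.19%). The deposited values are variance-stabilized on a log2 scale, on which a gene without a read in a sample takes the lowest value of the table.

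The eosinophil label was checked against 15 marker genes, of which 11 lay above the minimum mean. Alox15, a lipoxygenase, had the highest mean normalized count of the list at 18966 (7155 to 27548 over the 18 samples). Siglecf and Ccr3, which encode the surface receptors used to recognize eosinophils, had means of 2109 and 11975. Several transcripts of granule proteins were at or near the minimum: Epx had a mean normalized count of 10.2, Ear1 of 5.33, Ear2 of 8.69 and Ear6 of 0.167. Prg2, which encodes the granule major basic protein, was above it and had a median normalized count of 66 in WT, 627 in the samples labelled Ahr-/- and 89.8 in those labelled Ahrr-/-.

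The knockout labels were checked against the transcripts of the deleted genes. Ahr had lowest, median and highest values of 13.40, 13.76 and 14.40 in WT, and of 14.15, 14.55 and 14.67 in the samples labelled Ahr-/-. Ahrr ran from 9.79 to 10.39 in WT (median 10.12), from 9.95 to 10.93 in the samples labelled Ahrr-/- (median 10.37) and from the lowest value of the table to 5.79 in the samples labelled Ahr-/- (median 5.25). Ahrr is a known target gene of the aryl hydrocarbon receptor, and WT minus the samples labelled Ahr-/- was 4.83 for it (SE 0.14, adjusted p = 4.95e-12), with all 6 WT samples above all 6 labelled Ahr-/-. The study reports from qPCR that Ahrr transcripts were missing in intestinal eosinophils of mice with Ahr deleted in eosinophils only, which are not the mice sequenced here. It also reports lower Prg2 in WT than in Ahr-/- eosinophils, partly from these same sequenced samples and partly from qPCR in different mice. Neither transcript of the deleted genes was lower in the samples named for its own knockout. Which part of each gene is deleted is not known here, so the groups are called by their labels. All 18 samples matched their labelled sex by sex-linked transcripts.

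The median level of the genes differed between the complexes, while the ranges of the subunits overlapped from complex to complex. On a scale of mean normalized count per kilobase of transcript, which allows genes to be compared, the median gene stood at 234 among the complex I core subunits, 328 among the accessory subunits, 71.1 among the assembly factors, 410 in complex II, 555 in complex III, 760 in complex IV and 1071 in complex V. The assembly factors, which help to build complex I and are not part of it, were thus the class with the lowest median, and none of the 8 passed 130. The core of complex I holds the flavin and the iron-sulfur clusters.

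**Figure D1:**
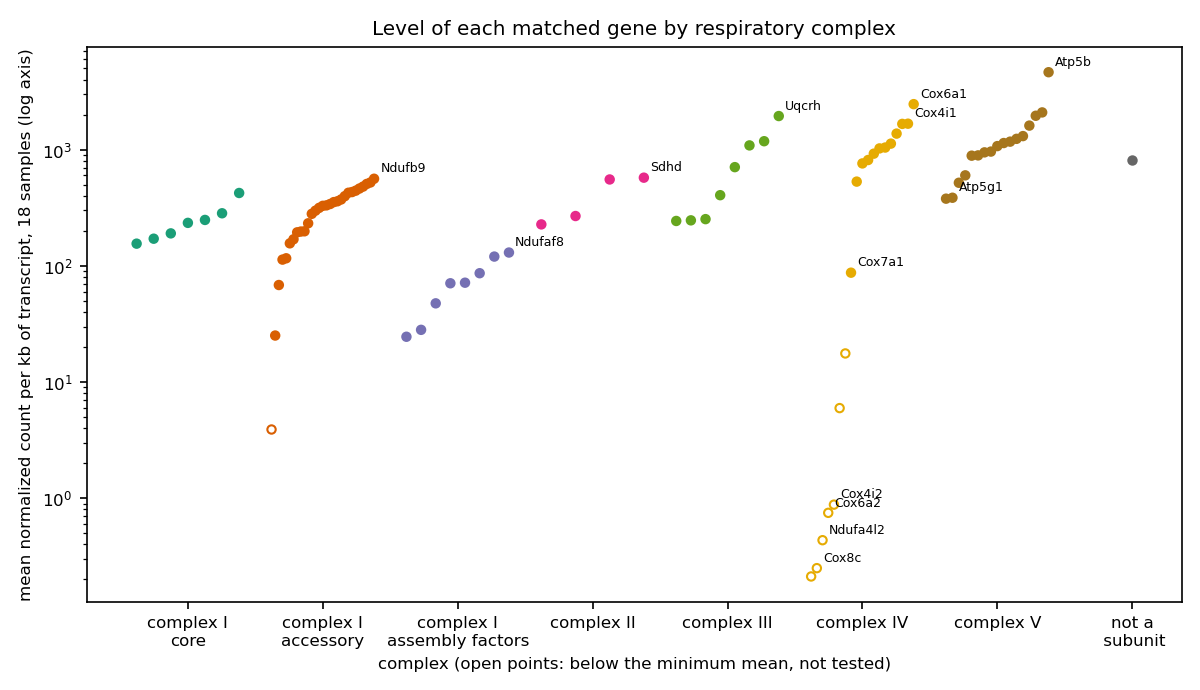
Mean normalized count per kilobase of transcript over 18 samples (vertical log axis) for each gene with a transcript length, grouped by complex; open points are genes below the minimum mean. Complex V reaches the highest level with Atp5b at 4631, and complex IV is the class with a separate group of open points near 0.

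Ndufb9, the highest accessory subunit of complex I at 561 per kilobase, had deposited values from 8.29 to 9.31 in WT (median 8.69), from 8.25 to 8.61 in the samples labelled Ahr-/- (median 8.38) and from 8.31 to 10.23 in those labelled Ahrr-/- (median 8.95). Ndufaf8, the highest assembly factor at 130 per kilobase, had medians of 7.05, 6.95 and 7.05 in the same order, within ranges of 6.63 to 7.09, 6.77 to 7.61 and 6.67 to 7.77. For these genes the groups overlapped, and the widest range lay in the samples labelled Ahrr-/-.

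Sdhd, a membrane anchor of complex II, reached 573 per kilobase and had lowest, median and highest values of 8.85, 9.19 and 10.07 in WT, 8.76, 9.22 and 9.54 in the samples labelled Ahr-/- and 8.88, 9.81 and 10.94 in those labelled Ahrr-/-. Uqcrh, the hinge protein of complex III, reached 1943 per kilobase, with 9.62, 9.71 and 10.36 in WT, 9.42, 9.55 and 9.76 in the samples labelled Ahr-/- and 9.50, 10.06 and 11.26 in those labelled Ahrr-/-. The most abundant gene per kilobase in the whole list was Atp5b, the catalytic beta subunit of ATP synthase, at 4631. Its deposited values place it above 99.7% of the genes in the table.

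Several subunits of complex IV exist as paralogs that differ between tissues, and in these cells the broadly expressed form was the abundant transcript. Cox4i1 stood at 1670 per kilobase and Cox4i2, a form known from lung, at 0.88. Cox6a1 stood at 2460 and Cox6a2, the form of heart and skeletal muscle, at 0.748. Cox6b1 stood at 1663 and its testis form Cox6b2 at 17.6. Cox8a stood at 1372, against 5.96 for the muscle form Cox8b and 0.25 for Cox8c. Ndufa4, a complex IV subunit despite its name, stood at 1125 and its paralog Ndufa4l2, known as a hypoxia-induced gene, at 0.435. Cox7a2 stood at 813 and the muscle form Cox7a1 at 87.2, the only alternative form of these pairs that was above the minimum mean.

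Cox4i1 ran from 9.47 to 10.98 in WT (median 9.98), from 9.83 to 10.65 in the samples labelled Ahr-/- (median 9.88) and from 9.52 to 11.78 in those labelled Ahrr-/- (median 10.65), and Cox4i2 had a count of 0 in 13 of 18 samples. Cox6a1 ran from 9.99 to 11.01 (median 10.31), from 9.86 to 10.67 (median 10.09) and from 9.96 to 11.80 (median 10.74) in the same order, and Cox6a2 also had a count of 0 in 13 samples. Cox6b1 had medians of 9.70, 9.23 and 9.93 and Cox6b2 of 5.64, 5.64 and 5.70. In each of these pairs the ranges of the paralogs were far apart in every group.

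Cox8a had medians of 9.51 in WT, 9.31 in the samples labelled Ahr-/- and 9.91 in those labelled Ahrr-/-, whereas Cox8b had medians of 5.29, 5.39 and 5.39 and Cox8c a count of 0 in 17 of 18 samples. Ndufa4 ran from 8.48 to 9.53 in WT, from 8.57 to 9.0 in the samples labelled Ahr-/- and from 8.45 to 10.76 in those labelled Ahrr-/-, and Ndufa4l2 had a count of 0 in 13 samples. Cox7a2 had medians of 8.93, 8.74 and 9.42 in the same order, and Cox7a1 of 6.34, 6.14 and 6.73. The other genes below the minimum mean were Cox7b2, with a count of 0 in 17 samples, Ndufb4c, annotated as a pseudogene, and Ndufs5, an accessory subunit with a mean normalized count of 2.33.

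The c subunit, of which a ring rotates in the membrane part of ATP synthase, is encoded by 3 genes that give the same mature protein. Per kilobase, Atp5g3 stood at 1608, Atp5g2 at 1071 and Atp5g1 at 385. Atp5g1 had lowest, median and highest values of 9.13, 9.68 and 10.88 in WT, 9.17, 9.46 and 10.12 in the samples labelled Ahr-/- and 9.13, 10.36 and 11.57 in those labelled Ahrr-/-. Atp5g2 had 8.90, 8.99 and 9.80, then 9.19, 9.37 and 9.88, then 8.89, 9.54 and 10.06, and Atp5g3 had 9.41, 9.78 and 10.77, then 9.48, 9.80 and 10.15, then 9.59, 10.60 and 11.50. The WT median of Atp5g2 was below that of the samples labelled Ahr-/-, while for Atp5g1 it was above, and the ranges overlapped for all 3 genes.

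The genes moved together from sample to sample. For each tested gene the deviation from its own mean over the 18 samples was taken, and the mean of these 85 deviations describes a sample. It had a lowest, median and highest value of -0.35, -0.14 and 0.41 in WT, -0.33, -0.25 and 0.07 in the samples labelled Ahr-/- and -0.37, 0.19 and 1.02 in those labelled Ahrr-/-, on the log2 scale. Of the samples labelled Ahr-/-, F3 had 0.07 and the others lay from -0.33 to -0.16. WT F1, at 0.41, was followed by WT M3 at 0.20, and the samples labelled Ahrr-/- covered the whole range from F1, the lowest of the 18, to M1, the highest. Ahrr-/- M1 alone held the highest value of 79 of the 85 genes.

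**Figure D2:**
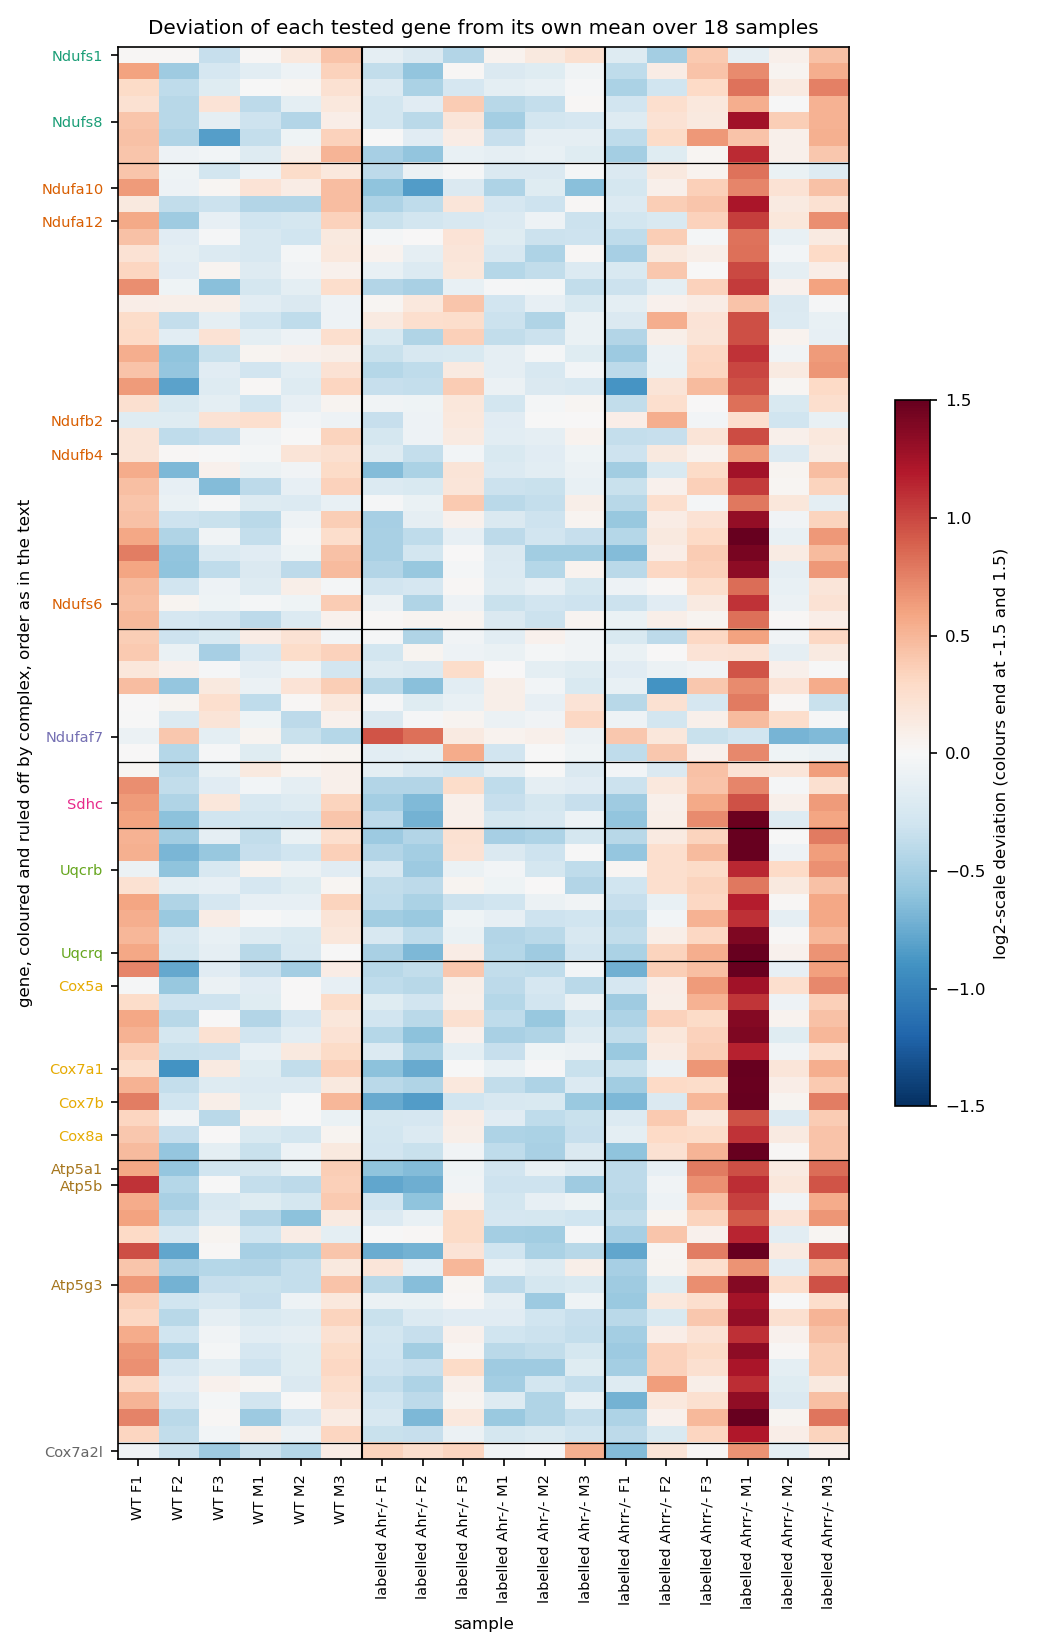
Deviation of each of the 85 tested genes from its own mean over 18 samples (colour, log2 scale), with genes ordered and ruled off by complex, some of them named, and samples by group. Some columns share nearly a single colour, most of all the sample M1 labelled Ahrr-/-, whose mean deviation is 1.02, and the row of Ndufaf7 runs against the others. Other columns are mixed, such as M2 labelled Ahrr-/-, with 47 of the 85 genes above their own mean, and F3 labelled Ahr-/-, with 56.

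As a description across the 18 samples, which share their libraries' depth and cell composition with all genes, the Pearson correlation of a gene with the mean of the other tested genes had a median of 0.91, and 75 of the 85 were above 0.7. Among the 11383 other genes above the minimum mean, the correlation with the mean of the 85 had a median of -0.04, and 10.2% were above 0.7. With the mean of each genotype removed, the median over the 85 was 0.90. The exceptions were few: Ndufaf7, a methyltransferase that modifies a core subunit during complex I assembly, had -0.57, the core subunit Ndufs1 had 0.16, the accessory subunit Ndufb2 had 0.21 and Cox7a2l had 0.48, which was 0.81 with the mean of each genotype removed. Of the 10 genes at or below 0.7, 5 were assembly factors.

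Transcripts of other intestinal cells were set beside this level. All 17 genes of an enterocyte list lay above the minimum mean and none had a count of 0 throughout. The most abundant was Sis, the brush-border sucrase-isomaltase, with a mean normalized count of 2575 (427 to 7921). From F1 to F3 and then M1 to M3, the summed normalized count of the list was 21692, 5447, 8830, 9400, 8342 and 13843 in WT, 4904, 4158, 9858, 9423, 10506 and 7054 in the samples labelled Ahr-/-, and 6557, 6882, 31006, 32903, 16291 and 33669 in those labelled Ahrr-/-. The 4 samples with the highest sums, Ahrr-/- M3, M1 and F3 and WT F1, were also the 4 samples with the highest mean level of oxidative phosphorylation genes. Other samples did not keep this order. Counted from the highest, Ahrr-/- F2 ranked 6 in the mean level and 14 in the enterocyte sum, and Ahr-/- M2 ranked 13 and 7.

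All 14 genes of a goblet and Paneth cell list were above the minimum mean as well. Its most abundant gene was Lyz1, the Paneth cell lysozyme, at a mean of 6945 (844 to 35281). In the same order of samples, its summed normalized count was 27674, 14105, 14357, 9692, 19484 and 26192 in WT, 12311, 13113, 13540, 9096, 6865 and 12921 in the samples labelled Ahr-/-, and 22260, 12631, 51073, 93618, 37331 and 79635 in those labelled Ahrr-/-. The eosinophil list was lowest in Ahrr-/- M3, at 35946, Ahrr-/- F3, at 49999, and WT F1, at 59438, but not low in Ahrr-/- M1, at 79391. Its group medians were 79698 in WT, 79660 in the samples labelled Ahr-/- and 74345 in those labelled Ahrr-/-. The sort gate should leave epithelial cells out, and the part of other cells in the level of the oxidative phosphorylation genes was not tested. In sorted bulk samples, fewer cells of a type and less RNA per cell cannot be told apart.

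**Figure D3:**
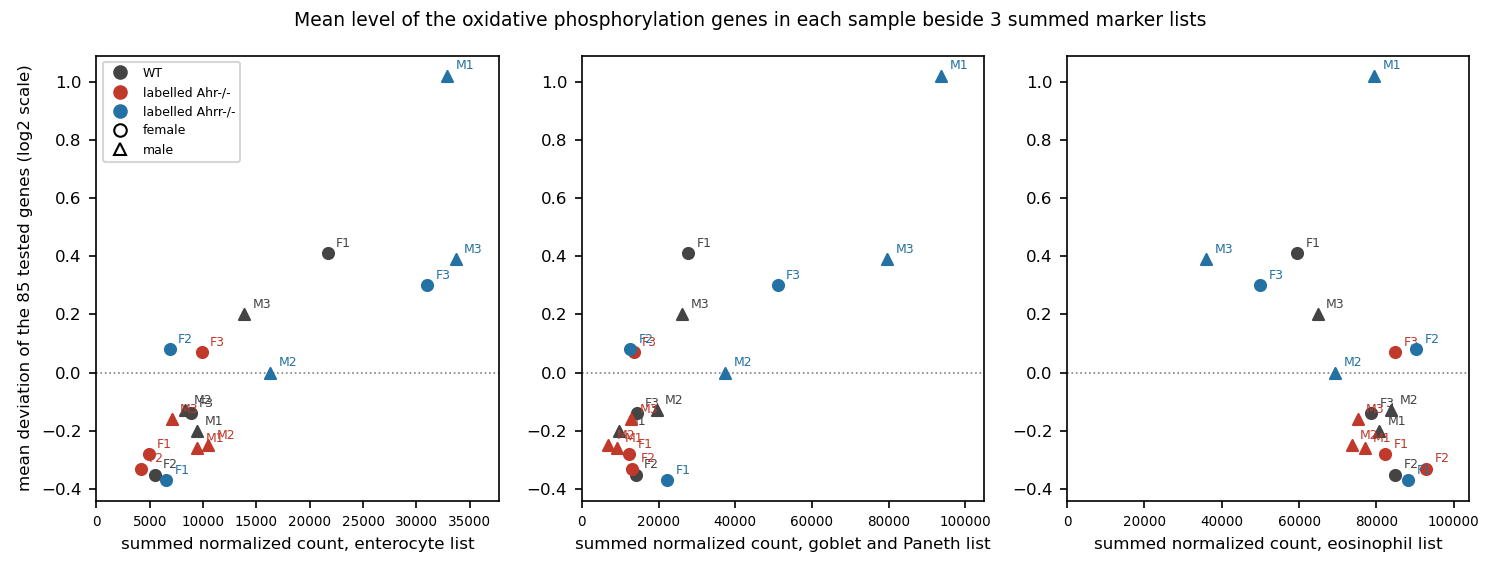
Mean deviation of the 85 tested genes in each of 18 samples (vertical, log2 scale) against the summed normalized count of the enterocyte, goblet and Paneth, and eosinophil lists (horizontal); colours are groups, circles females and triangles males. The sample M1 labelled Ahrr-/-, at 1.02, has the highest goblet and Paneth sum, 93618.

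Other cell types were checked with further lists, given as the lowest to highest summed normalized count in WT, in the samples labelled Ahr-/- and in those labelled Ahrr-/-. Neutrophil genes (7 of 13 above the minimum mean, most abundant Retnlg at a mean of 50000) ran from 24276 to 49051, from 56089 to 113777 and from 24516 to 45794. Every sample labelled Ahr-/- lay above every other sample in this sum, which is mostly Retnlg (median normalized count 35385, 82172 and 33231). Mmp8 of the same list went the other way, with medians of 41.7, 6.60 and 80.9. Genes of macrophages and dendritic cells (14 of 18, Cd74 at 1176) ran from 1466 to 4082, from 654 to 5922 and from 1219 to 9526. Lymphoid genes (6 of 18 found, Jchain at 1432) ran from 814 to 2341, from 489 to 1315 and from 863 to 6964.

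Mast cell genes were mostly near 0, with 2 of 10 above the minimum mean and Hdc, which eosinophils may also express, the most abundant at 3254. Their sums ran from 613 to 8092, from 725 to 9061 and from 1402 to 8530. Genes of stroma and endothelium (10 of 14, Pecam1 at 2610) ran from 2815 to 4204, from 2110 to 2598 and from 2786 to 4458, a sum that is mostly Pecam1 (median normalized count 3174, 2023 and 2606) and was lower in every sample labelled Ahr-/- than in any other sample. Pancreatic acinar genes (6 of 19, Ctrb1 at 228 and at 0 in its lowest sample) ran from 85.2 to 4837, from 34.8 to 621 and from 47.3 to 2349. Genes of dividing cells (12 of 12, Mki67 at 2589) ran from 3730 to 7276, from 2778 to 4486 and from 2835 to 11140. The lymphoid sum was highest in Ahrr-/- M1, at 6964, and Ahrr-/- F2, at 6425, and the sum of dividing-cell genes in Ahrr-/- M3, at 11140, and WT F1, at 7276.

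Since the genes moved together, their promoters were compared in the RefSeq promoter table for GRCm38.p6, which gives 250 bases before to 50 bases after a start. It held 81 windows for 76 of the 94 genes, among 32851 windows in all. It had none for 18 genes, among them Atp5a1, Cox4i1, Ndufb9, Sdhc, Uqcrb and Uqcrq. Searched on both strands, the ETS core CCGGAAG stood in 23.5% of the members' windows and 8.86% of all windows, the NRF1 core GCATGCGC in 14.8% and 2.71%, and the YY1 core ATGGCGG in 16% and 4.05%. The AHR core GCGTG stood in 55.6% and 32.4%, the longer form TNGCGTG, which contains it, in 14.8% and 5.07%, and the TATA sequence TATAAA in 11.1% and 13.6%. The median content of G and C was 58.3% in the members' windows and 52.7% in all windows, and a match is a description of letters and not evidence of a bound site. ETS factors, NRF1 and YY1 are known regulators of respiratory chain genes.

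Printed here are the windows of the gene with the smallest adjusted p (Ndufa10), of the most abundant gene (Atp5b), of a complex IV and a complex I core subunit that passed the test (Cox8a, Ndufs8) and of the gene with a negative correlation to the others (Ndufaf7). They lie at chr1:92473709-92474008 on the minus strand, chr10:128083057-128083356 on the plus strand, chr19:7217567-7217866 on the minus strand, chr19:3912725-3913024 on the minus strand and chr17:78936885-78937184 on the plus strand, in that order, and are written 5′ to 3′ along the strand of the gene. Capitals mark the ETS core in Cox8a and Ndufs8, the YY1 core in Atp5b and Ndufaf7 and the longer AHR form in Ndufaf7, on either strand. The window of Ndufa10 holds none of the 6 motifs. The windows of Cox5a and Cox7b, complex IV genes that passed the test as well, and of Cox7a2l hold no ETS, NRF1, YY1 or longer AHR match and are not printed, so Cox8a does not stand for its complex.
Ndufa10: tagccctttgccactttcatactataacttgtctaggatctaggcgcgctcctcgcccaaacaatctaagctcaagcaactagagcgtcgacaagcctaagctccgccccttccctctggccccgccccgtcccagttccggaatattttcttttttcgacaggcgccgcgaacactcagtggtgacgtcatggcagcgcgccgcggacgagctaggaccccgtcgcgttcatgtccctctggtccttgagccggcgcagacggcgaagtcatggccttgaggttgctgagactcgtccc
Atp5b: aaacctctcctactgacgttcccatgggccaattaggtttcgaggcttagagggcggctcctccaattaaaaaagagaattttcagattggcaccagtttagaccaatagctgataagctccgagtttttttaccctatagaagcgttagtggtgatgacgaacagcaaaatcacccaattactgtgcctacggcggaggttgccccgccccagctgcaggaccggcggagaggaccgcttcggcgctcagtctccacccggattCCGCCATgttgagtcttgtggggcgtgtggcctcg
Cox8a: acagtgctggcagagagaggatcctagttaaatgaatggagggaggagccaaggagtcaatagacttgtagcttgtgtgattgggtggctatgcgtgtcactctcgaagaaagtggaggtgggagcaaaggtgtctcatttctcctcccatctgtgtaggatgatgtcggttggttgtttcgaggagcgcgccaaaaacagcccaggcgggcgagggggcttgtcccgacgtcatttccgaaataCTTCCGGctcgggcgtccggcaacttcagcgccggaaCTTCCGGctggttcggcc
Ndufs8: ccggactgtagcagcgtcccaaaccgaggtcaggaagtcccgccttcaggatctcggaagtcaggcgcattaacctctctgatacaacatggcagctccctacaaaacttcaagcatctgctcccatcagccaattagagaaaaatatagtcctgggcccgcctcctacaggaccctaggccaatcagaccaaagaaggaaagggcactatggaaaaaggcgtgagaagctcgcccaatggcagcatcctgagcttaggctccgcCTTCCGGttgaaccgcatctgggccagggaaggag
Ndufaf7: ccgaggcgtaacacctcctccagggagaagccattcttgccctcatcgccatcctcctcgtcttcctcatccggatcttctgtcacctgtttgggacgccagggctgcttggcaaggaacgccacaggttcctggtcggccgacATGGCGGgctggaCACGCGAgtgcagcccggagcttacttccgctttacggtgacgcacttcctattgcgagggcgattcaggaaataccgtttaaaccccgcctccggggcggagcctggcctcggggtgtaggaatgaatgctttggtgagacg

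The comparison of WT with the samples labelled Ahr-/- asks what differs in eosinophils of mice labelled as lacking the receptor. Ndufa10, an accessory subunit of complex I, and Cox7b, a small subunit of complex IV encoded on the X chromosome, were higher in WT. The transcript of Cox7a2l, named above as an assembly protein of supercomplexes, was lower. These were the 3 of 85 tested genes that passed the test (limma, Benjamini-Hochberg adjusted p under 0.05 over the 11346 tested genes). They were 3.53% of the tested oxidative phosphorylation genes, beside 1003 of all tested genes, or 8.84%, and whether these shares differ was not tested.

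Ndufa10 had lowest, median and highest values of 9.31, 9.55 and 10.03 in WT, 8.55, 8.86 and 9.21 in the samples labelled Ahr-/- and 9.12, 9.68 and 10.12 in those labelled Ahrr-/-. All 6 WT samples lay above all 6 labelled Ahr-/-, and the samples labelled Ahrr-/- reached below and above the range of WT. The difference between WT and the samples labelled Ahr-/- was 0.72 on the log2 scale (SE 0.14, 95% interval 0.42 to 1.02, 6 mice per group, adjusted p = 0.00429). Ndufa10 (gene identifier 67273) lies at chr1:92439486-92473825 and shares no stretch of 75 bases with another annotated gene. The neutrophil and stromal sums, each mostly from a single gene, separated the same groups. Of the neutrophil list 1 of 7 tested genes was higher in WT (Mmp8) and 2 lower (Retnlg and Cxcr2), where 8.84% of all tested genes passed. Of the stromal list 1 of 5 was higher (Pecam1), and the part of these lists in the difference was not tested.

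Cox7b had 9.50, 9.83 and 10.56 in WT and 8.96, 9.37 and 9.57 in the samples labelled Ahr-/-. The groups overlapped by a single WT sample, F2, and 5 of 6 WT samples lay above all samples of the other group. The difference was 0.63 (SE 0.18, adjusted p = 0.0353). Cox7a2l had 9.34, 9.55 and 9.99 in WT, 9.83, 10.16 and 10.41 in the samples labelled Ahr-/- and 9.23, 9.92 and 10.55 in those labelled Ahrr-/-. In WT, 5 of 6 samples lay below all samples labelled Ahr-/-, and the difference was -0.49 (SE 0.13, adjusted p = 0.0286). Of its 75-base stretches, 13.4% also occur in the pseudogene Gm6969.

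**Figure D4:**
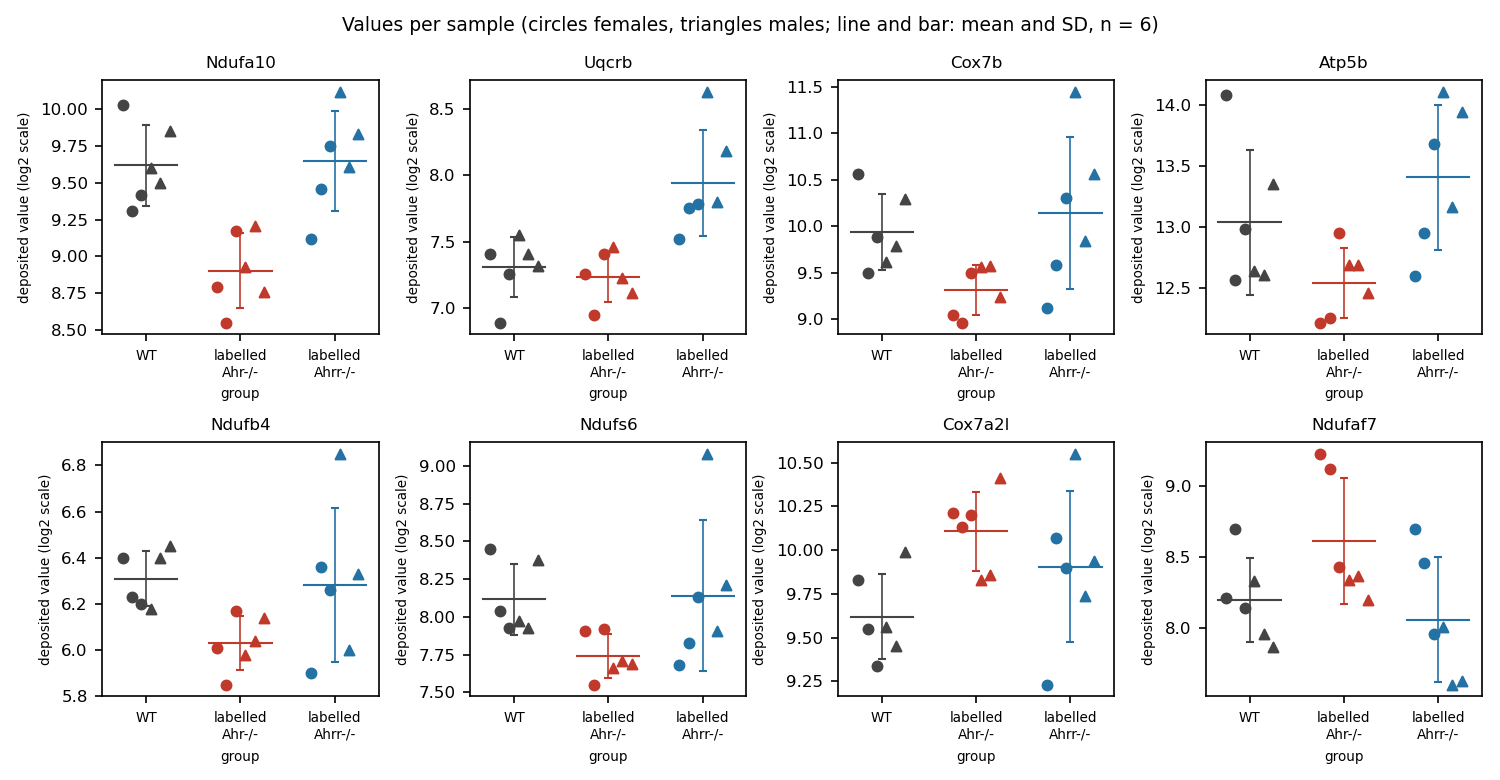
Deposited values (log2 scale) of 8 genes in each sample, by group; circles are females, triangles males, the line and bar give mean and SD (n = 6). Ndufa10 has its lowest mean in the samples labelled Ahr-/-, Uqcrb has its highest in those labelled Ahrr-/-, and Cox7a2l and Ndufaf7 have their highest mean in the samples labelled Ahr-/-.

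No overlap between WT and the samples labelled Ahr-/- was also seen for Ndufb4 and Ndufs6, accessory subunits of complex I, so that 3 genes had all WT samples higher and none had all lower. Of all tested genes 4.51% had no overlap in either direction. Ndufs6 had 7.93, 8.0 and 8.45 in WT and 7.55, 7.70 and 7.92 in the samples labelled Ahr-/-, a difference of 0.38 that missed the threshold (SE 0.12, adjusted p = 0.0694). Ndufb4 had 6.18, 6.31 and 6.45 against 5.85, 6.03 and 6.17 and differed by 0.28 (SE 0.11, adjusted p = 0.139). Of the stretches of Ndufb4, 35.2% also occur in other genes, most of them in Ndufb4c.

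As a list, 74 of the 85 genes had a positive difference and 11 a negative one, with a median of 0.19 (range -0.49 to 0.72) beside 0.00407 for all tested genes. Unadjusted p-values under 0.05 were found for 15 of the 85 (17.6%) and for 23.3% of all genes. The enterocyte list had a median difference of 0.45 with 0 of 17 genes passing the test, and the goblet and Paneth list one of 0.64 with 6 of 14 passing, all higher in WT. Beside the 8.84% of all tested genes that passed, also higher in WT were 4 of 8 tested pancreatic acinar genes (median 1.53) and 2 of 12 genes of dividing cells (median 0.46), and of the eosinophil list 2 of 11 were higher and 2 lower (median -0.12). Of the lists of macrophages and dendritic cells, lymphoid cells and mast cells, 0 of 13, 0 of 6 and 0 of 2 tested genes passed limma's test. The median of the oxidative phosphorylation genes was 0.08 without WT F1, the WT sample with the highest epithelial sums. WT F1 also had the highest mean level of the 85 genes in WT. Leaving it out thus lowers the median by construction and says nothing of its source. The number passing was 6 without WT F2 (1124 of all genes) and 1 without WT F3 (733), Ahr-/- F1 (623), Ahr-/- F2 (677) or Ahr-/- M3 (685), while Ndufa10 passed in all 21 alternatives run for this comparison and Cox7b and Cox7a2l in 13 each.

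The comparison of WT with the samples labelled Ahrr-/- asks what differs in mice labelled as lacking the repressor. With limma, 0 of the 85 genes passed the test, 5 had an unadjusted p under 0.05 (5.88%, beside 7.39% of all genes), and voom on the recovered counts also gave 0, with 4 under 0.05. Of all 11546 tested genes 9 passed (0.0779%), all lower in WT. The median difference was -0.26 beside -0.0107 for all tested genes, and 81 of the 85 were negative, that is, lower in WT, within a range of -0.64 to 0.14. No gene of the list had groups without overlap, against 0.459% of the table.

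The largest difference belonged to Uqcrb, a small subunit of complex III that helps to bind ubiquinone. It had lowest, median and highest values of 6.89, 7.36 and 7.55 in WT, 6.95, 7.25 and 7.46 in the samples labelled Ahr-/- and 7.52, 7.79 and 8.63 in those labelled Ahrr-/-. A single WT sample reached into the range of the samples labelled Ahrr-/-, and the difference was -0.64 (SE 0.16, adjusted p = 0.323). The lists of epithelial genes pointed the same way, with medians of -0.67 for enterocyte and -0.83 for goblet and Paneth genes and 0 genes passing in either. Genes that passed, all lower in WT, were in the neutrophil list (S100a8, at -2.06, and S100a9, at -2.10, of 7 tested, list median -0.50) and in the list of macrophages and dendritic cells (Cd14, at -1.09, of 13 tested, list median -0.57). Without Ahrr-/- M1 the median of the 85 was -0.11, and without M1, M3 and F3 together, a choice made after seeing the data, it turned to 0.06. These are the 3 samples of the group with the highest mean level of the 85 genes, so a shift in this direction follows from the choice.

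The widest contrast was between the samples labelled Ahrr-/- and those labelled Ahr-/-. Here 14 of the 85 genes passed the test (16.5%), 13 of them higher in the samples labelled Ahrr-/-, beside 1708 of 11474 genes in the table (14.9%, of which 923 were higher and 785 lower). The genes that were higher came from every complex: Ndufs8, Ndufa10 and Ndufa12 of complex I, Sdhc of complex II, Uqcrb and Uqcrq of complex III, Cox5a, Cox7a1, Cox7b and Cox8a of complex IV, and Atp5a1, Atp5b and Atp5g3 of complex V. Ndufaf7 was lower. The share passing was near that of the table, whereas the direction was nearly uniform. Of the 85 differences 83 were positive, with a median of 0.45 (range -0.56 to 0.87) beside -0.00261 for all genes. In limma 61.2% had an unadjusted p under 0.05 beside 32.8% of all genes. As the genes moved together, counts of signs and of unadjusted p-values, here and in the other comparisons, are not separate observations.

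In complex I, Ndufa10 was again first, with a difference of 0.75 (SE 0.15, adjusted p = 0.00639) and 5 of 6 samples labelled Ahrr-/- above all those labelled Ahr-/-. Ndufs8, a core subunit that carries iron-sulfur clusters, had 7.67, 7.90 and 8.36 in the samples labelled Ahr-/- and 7.98, 8.47 and 9.44 in those labelled Ahrr-/-, with 7.73, 7.95 and 8.59 in WT. It differed by 0.64 (SE 0.19, adjusted p = 0.039), and 4 of 6 samples labelled Ahrr-/- lay above the other group. Ndufa12, an accessory subunit, had a difference of 0.53 (adjusted p = 0.0486) with 4 of 6 samples beyond the other group. Sdhc, the other membrane anchor of complex II, had one of 0.64 (adjusted p = 0.0468) with 3 of 6.

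In complex III, Uqcrb was the gene of the list whose groups did not overlap: all 6 samples labelled Ahrr-/- lay above all 6 labelled Ahr-/-, as was true in some direction for 4.61% of the table. The difference was 0.71 (SE 0.16, 95% interval 0.37 to 1.04, adjusted p = 0.0103). Uqcrb (gene identifier 67530, chr13:66900576-66905350) shares 29.1% of its 75-base stretches with other genes, most with the pseudogene Gm16089. Uqcrq, another small subunit, had 8.45, 8.67 and 9.23 in the samples labelled Ahr-/-, 8.65, 9.56 and 10.75 in those labelled Ahrr-/- and 8.71, 8.94 and 9.71 in WT. Its groups overlapped, with 4 of 6 samples beyond the other group, and it differed by 0.84 (SE 0.25, adjusted p = 0.0398).

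In complex IV, Cox5a, which binds thyroid hormone derivatives and supports the core of the enzyme, had 9.0, 9.03 and 9.50 in the samples labelled Ahr-/-, 9.16, 9.86 and 10.68 in those labelled Ahrr-/- and 8.85, 9.31 and 9.42 in WT. It differed by 0.75 (SE 0.20, adjusted p = 0.0245), with 5 of 6 samples labelled Ahrr-/- above the other group. Cox8a, a small membrane subunit, had 9.15, 9.31 and 9.71 against 9.47, 9.91 and 10.70, with 9.27, 9.51 and 10.03 in WT, and differed by 0.62 (SE 0.18, adjusted p = 0.0324). Cox7b reached 9.12, 10.07 and 11.45 in the samples labelled Ahrr-/- and differed by 0.83 (SE 0.26, adjusted p = 0.0427). Each of these complex IV genes had 5 of 6 samples labelled Ahrr-/- above all those labelled Ahr-/-. Cox7a1, the muscle form, differed by 0.73 (adjusted p = 0.049), with 4 of 6 samples beyond the other group.

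In complex V, Atp5b had 12.22, 12.57 and 12.95 in the samples labelled Ahr-/-, 12.60, 13.43 and 14.11 in those labelled Ahrr-/- and 12.57, 12.81 and 14.08 in WT. It differed by 0.86 (SE 0.23, adjusted p = 0.0231), and 5 of 6 samples labelled Ahrr-/- lay above the other group. Atp5a1, which alternates with Atp5b in the catalytic head, had 10.85, 11.26 and 11.43 against 11.10, 11.96 and 12.46, with 10.92, 11.31 and 12.08 in WT, and differed by 0.68 (SE 0.21, adjusted p = 0.0397). Atp5g3 differed by 0.75 (adjusted p = 0.0484), with 4 of 6 samples labelled Ahrr-/- above the other group as for Atp5a1, while its paralog Atp5g2 had a difference of 0.09 (SE 0.19, adjusted p = 0.788). Atp5g1, the third gene of the c subunit, had the largest difference of the 85 genes, 0.87, and did not pass (SE 0.30, adjusted p = 0.0598). Of the 75-base stretches of Atp5g2, 35.8% occur in other genes, most in the pseudogene Gm10175.

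Ndufaf7 went the other way. It had 7.60, 7.99 and 8.70 in the samples labelled Ahrr-/-, 8.20, 8.40 and 9.23 in those labelled Ahr-/- and 7.87, 8.18 and 8.70 in WT. In the samples labelled Ahrr-/-, 4 of 6 lay below all samples labelled Ahr-/-, and the difference was -0.56 (SE 0.16, adjusted p = 0.0323). The females F1 and F2 labelled Ahr-/- held the highest values. Of its 75-base stretches 1.4% occur elsewhere.

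The marker lists are given beside this contrast, in which 14.9% of all tested genes passed. Of the enterocyte list, 9 of 17 genes passed the test, all higher in the samples labelled Ahrr-/-, with a median difference of 1.0. Of the goblet and Paneth list, 13 of 14 passed, all higher, with a median of 1.69. Of the eosinophil list, 2 of 11 were higher and 4 lower, with a median of -0.33. Higher in the samples labelled Ahrr-/- were also 3 of 6 lymphoid genes, 5 of 12 genes of dividing cells, 3 of 7 neutrophil genes (1 lower), 2 of 14 genes of macrophages and dendritic cells (1 lower) and 2 of 12 of stroma and endothelium. Of the mast cell and pancreatic acinar lists, 0 of 2 and 0 of 3 tested genes passed limma's test. The part of these cells in the difference was not tested. Ahrr-/- F3, M1 and M3 had both the highest enterocyte sums of their group and its highest mean level of the 85 genes, so leaving them out lowers the difference by construction and says nothing of its source. Without these 3 samples, a choice made after seeing the data, 0 of the 85 genes passed the limma test, 8 had an unadjusted p under 0.05, and the median difference was 0.10; voom was not run on that subset. In that subset Ndufa10 had a difference of 0.53 (adjusted p = 0.0662, over all alternatives 0.00241 to 0.0662). Uqcrb had one of 0.47 (adjusted p = 0.0825, over all alternatives 0.00374 to 0.0825).

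The number passing also moved with the minimum mean, the sex covariate and a replicate block, as given in the last section, and with single samples. It was 2 without Ahr-/- F1, F2, M1, M2 or M3, when 907, 970, 839, 933 and 818 of all tested genes passed. It was 33 without Ahr-/- F3 (1990 of all genes), 54 without Ahrr-/- F1 (2574), 28 without Ahrr-/- M2 (1888), 6 without Ahrr-/- M1 (1378), and 2 without Ahrr-/- F3 (1001) or M3 (923). The number over the whole table thus moved in the same direction each time. Ndufa10 passed in 21 of 22 alternatives and Uqcrb in 20 of the 21 that tested it, the exception for both being the subset without 3 samples. Atp5b, Cox5a and Cox8a passed in 14 of 22, Atp5a1, Uqcrq, Ndufs8, Cox7b and Ndufaf7 in 11, Sdhc in 10, Atp5g3 in 8, Cox7a1 in 8 of 21 and Ndufa12 in 6 of 21.

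The 3 comparisons share samples, and their values are set side by side by complex. In the order WT minus Ahr-/-, WT minus Ahrr-/- and Ahrr-/- minus Ahr-/-, the median difference was 0.12, -0.25 and 0.41 among the core subunits of complex I. The accessory subunits had medians of 0.14, -0.21 and 0.37, and complex II had 0.21, -0.25 and 0.52. Complex III had 0.27, -0.40 and 0.61, complex IV 0.21, -0.39 and 0.63, and complex V 0.27, -0.30 and 0.52. The assembly factors stood nearer to 0, with 0.04, -0.06 and 0.13. In the comparison of Ahrr-/- with Ahr-/-, unadjusted p-values under 0.05 were found for 5 of 7 core and 11 of 28 accessory subunits of complex I, 1 of 8 assembly factors, 4 of 4 genes of complex II, 8 of 8 of complex III, 10 of 12 of complex IV and 13 of 17 of complex V. In that comparison 32.8% of all tested genes had such a value, and whether the shares differ was not tested.

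**Figure D5:**
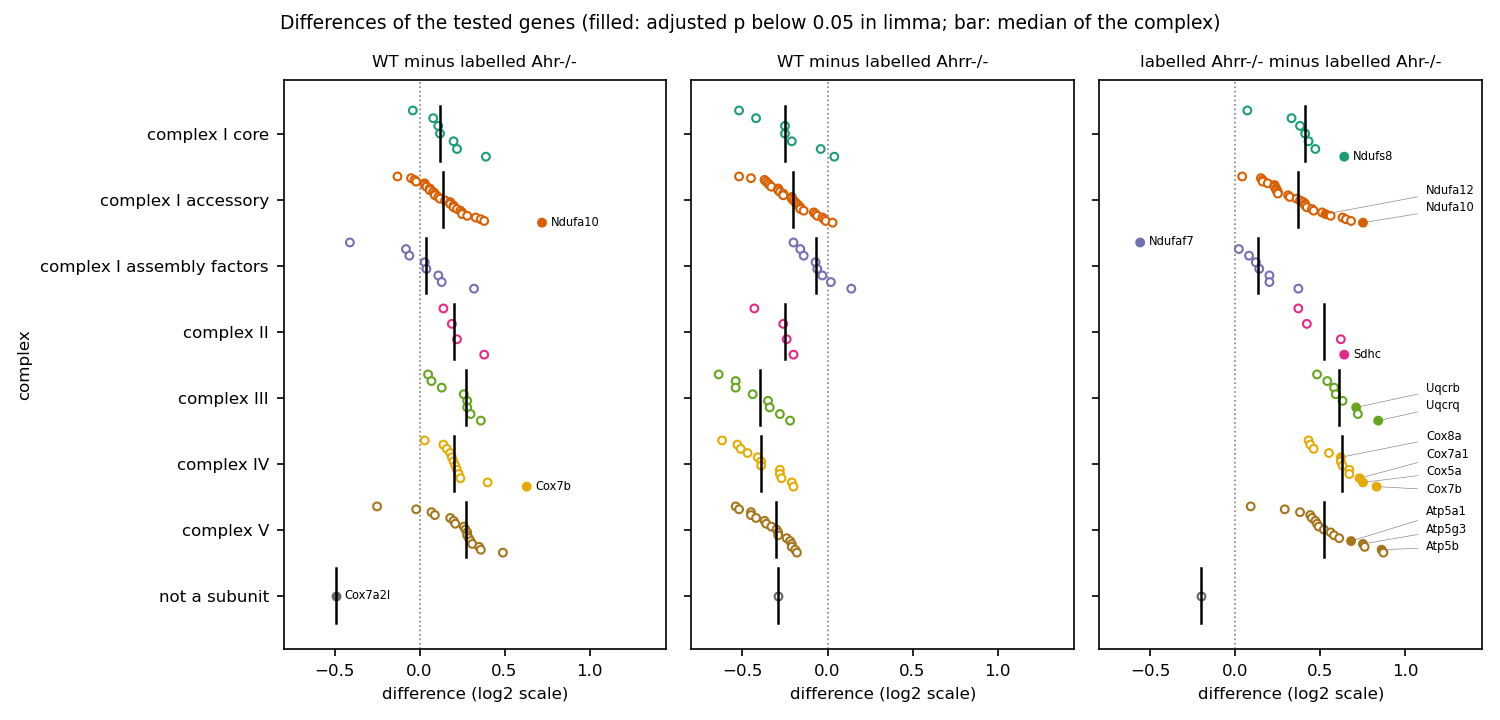
Difference on the log2 scale (horizontal) of each tested gene in 3 comparisons, by complex; filled and named points passed limma's test at an adjusted p under 0.05 and bars are medians. In the right panel complex IV has a median of 0.63 and the assembly factors one of 0.13, with Ndufaf7 at -0.56.

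Sex was compared over all 18 samples with genotype in the fit. Ndufaf7 was the 1 of 85 genes that passed the test, lower in males, beside 351 of 11468 genes (3.06%). It had lowest, median and highest values of 7.60, 8.01 and 8.37 in 9 males and 7.96, 8.46 and 9.23 in 9 females. The sexes overlapped, though all 9 males lay below the female median, and males minus females gave -0.52 (SE 0.13, adjusted p = 0.0364). Within the genotypes, the male and female medians were 7.96 and 8.21 in WT, 8.34 and 9.12 in the samples labelled Ahr-/- and 7.63 and 8.46 in those labelled Ahrr-/-. The difference passed in 11 of 25 alternatives. The number of genes passing was 2 without WT F1 or Ahrr-/- F3 and 0 without WT F2, M2 or M3, Ahr-/- F1, F2, M1, M2 or M3, or Ahrr-/- F1, F2, M2 or M3.

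The 3 tested genes on the X chromosome did not pass. Cox7b ran from 9.24 to 11.45 in males (median 9.79) and from 8.96 to 10.56 in females (median 9.50), a difference of 0.38 (adjusted p = 0.349). Ndufa1, an accessory subunit essential for complex I assembly, had medians of 7.84 and 7.85 and a difference of 0.10 (adjusted p = 0.731), and Ndufb11, another accessory subunit, had medians of 8.67 and 8.64 and one of 0.04 (adjusted p = 0.89). As a list, 74 of the 85 genes had a positive difference of males minus females, with a median of 0.12 beside 0.0135 for all genes, and 7 had an unadjusted p under 0.05 (8.24%, beside 18.7%).

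Whether the difference between WT and the samples labelled Ahr-/- depended on sex was tested with an interaction term. With limma, 0 of the 85 genes passed and 0 had an unadjusted p under 0.05, and voom also gave 0. Of all 11346 tested genes 0 passed (0%) and 4.7% had an unadjusted p under 0.05. There were 3 mice per sex and genotype.

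Other genes of the pathway came from lists outside the naming rule. The subunits encoded in mitochondrial DNA were looked for under 26 names, of which 0 were found, so they were not analysed. Among electron carriers and nucleotide exchange, 2 of 24 tested genes were higher in WT than in the samples labelled Ahr-/-, where 8.84% of all tested genes passed. Between the samples labelled Ahrr-/- and those labelled Ahr-/-, where 14.9% of all tested genes passed, 3 of 24 were higher and 0 lower. Cycs, which encodes cytochrome c, had lowest, median and highest values of 9.21, 9.50 and 10.22 in WT, 8.50, 9.02 and 9.26 in the samples labelled Ahr-/- and 9.0, 9.82 and 10.65 in those labelled Ahrr-/-. Its differences were 0.63 (SE 0.17, adjusted p = 0.0321) for WT minus Ahr-/- and 0.80 (SE 0.22, adjusted p = 0.0254) for Ahrr-/- minus Ahr-/-. Coq5, a methyltransferase of ubiquinone synthesis, had medians of 8.48, 7.66 and 8.33 and differences of 0.76 (SE 0.17, adjusted p = 0.0112) and 0.59 (SE 0.15, adjusted p = 0.0207). Slc25a4, the ADP/ATP carrier of muscle and heart, differed by 0.45 (SE 0.13, adjusted p = 0.0343) between Ahrr-/- and Ahr-/-.

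Among 20 tested genes of mitochondrial biogenesis and transcription, 1 passed between WT and the samples labelled Ahr-/- (8.84% of all tested genes), and 2 were higher and 1 lower in the samples labelled Ahrr-/- than in those labelled Ahr-/- (14.9% of all tested genes). The median differences of the list were 0.09, 0.02 and 0.03 in the order of comparisons used for the complexes. Ppargc1a, a coactivator that drives transcription of respiratory genes, was higher in WT than in the samples labelled Ahr-/- by 0.87 (SE 0.21, adjusted p = 0.0183). It had 7.08, 7.45 and 8.50 in WT, 6.19, 6.85 and 7.09 in the samples labelled Ahr-/- and 6.36, 8.13 and 8.89 in those labelled Ahrr-/-. The lowest WT value lay just within the range of the samples labelled Ahr-/-, and those labelled Ahrr-/- overlapped both groups. Between Ahrr-/- and Ahr-/-, Ppargc1a differed by 1.17 (SE 0.31, adjusted p = 0.0241) and its relative Ppargc1b by 0.46 (SE 0.14, adjusted p = 0.0408), whereas Polg, the mitochondrial DNA polymerase, differed by -0.71 (SE 0.15, adjusted p = 0.00958). Nrf1 and Gabpa, whose proteins bind the NRF1 and ETS motifs, had differences of 0.08 and 0.29 between WT and Ahr-/- and did not pass.

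Of the tricarboxylic acid cycle, which feeds electrons to the chain, 1 of 19 tested genes passed between Ahrr-/- and Ahr-/- (14.9% of all tested genes) and 0 between WT and Ahr-/- in limma's test. Cs, the citrate synthase, was higher in the samples labelled Ahrr-/- than in those labelled Ahr-/- by 0.47 (SE 0.13, adjusted p = 0.0326). The medians of this list were 0.17, -0.16 and 0.35 in the order of comparisons used for the complexes, and all 19 genes had a positive difference in the last. Other assembly factors, 50 of 53 of which were found, had medians of 0.07, -0.05 and 0.11. Between Ahrr-/- and Ahr-/-, 3 of 46 tested genes of this list were higher and 1 lower, where 14.9% of all tested genes passed. Of these, Atpif1, the inhibitor of ATP synthase, differed by 0.84 (adjusted p = 0.0275), Tmem70, an assembly factor of complex V, by 0.55 (adjusted p = 0.0343) and Higd2a, one of complex IV, by 0.54 (adjusted p = 0.0485), whereas Foxred1, one of complex I, differed by -0.57 (adjusted p = 0.00729). In no comparison of WT with Ahrr-/- did a gene of these lists pass limma's test.

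Counting limits some of these values. The library kit is not stated to keep the strand, and 40 of the 92 genes with a gene model overlap another gene, 31 of them on the opposite strand. Ndufb2 overlaps Braf by 146 bases, and Braf has a mean normalized count of 2999. Cox6c overlaps Vps13b by 5344 bases, with a mean of 3540. How reads that fit several genes were counted is uncertain, since the labels name RSEM, which divides them between genes, and the methods name another pipeline. Of 91 genes with a modelled transcript, 54 share no 75-base stretch with another gene and 37 share some. Atp5l shares 76%, most with the pseudogene Gm10221, and is the single gene above 50%. Ndufs5, which was below the minimum mean, shares 15.7% with the pseudogene BC002163, and whether this lowers its count was not tested. Of the genes that passed a test, Uqcrb shares 29.1%, Ndufa12 22% (with the pseudogene Gm15920), Cox5a 21.7% (with the noncoding RNA gene Gm26631), Cox7a2l 13.4%, Atp5a1 1.9% and Ndufaf7 1.4%, and the others share 0%.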

How the data were processed

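The deposited table held 1 column for each of 18 samples, and per its name and the study's methods the authors made its log2 values from gene counts by the variance-stabilizing transformation of DESeq2, with reads aligned to GRCm38. The transformation was inverted to counts, which were whole within 0.0001 for 100% of values. Genes with a mean at least 1 above the lowest value were tested with limma 3.58.1 (R 4.3.3, trend), with genotype and sex in the fit and 12 samples per pair of genotypes, and limma's p-values were adjusted by Benjamini-Hochberg over all tested genes. Sex was tested over 18 samples with genotype in the fit, and the interaction in WT and Ahr-/- samples. Counts per kilobase used GENCODE transcript lengths, as the median over the transcripts of a gene. Alternatives were other minimum means, other scalings, voom on the recovered counts, fits with and without covariates, blocks by replicate number and leaving out samples. Replicate numbers were not used as pairs: over 18 pairs of same-numbered samples correlations ran from -0.59 to 0.47, 6 were above 0.1, and the own number was highest in 5. Named in full were genes that passed the test, up to 10 per comparison, the highest gene per kilobase in each complex other than the complex I core, paralog pairs and X-linked genes. Ndufb4, Ndufs6, Uqcrb against WT and the genes of other pathways were chosen after their values were seen. The members and lists were chosen with earlier results of these data known.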

Additional observations from a re-analysis of the deposited data

Results flagged for a closer look

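Within groups of 6, a sample was set apart where its gap to the nearest other value was large for the range of its group, which chance does in about 1 in 20 groups. Of 138 groups tested, 15 (10.9%) had such a sample. In 4 of the 15 the other samples all had a count of 0, so that any read set a sample apart, and the share cannot be held against that of chance. In the samples labelled Ahr-/-, F3 stood above the rest for Cox5a (9.50, others up to 9.16), Cox6a1 (10.67, others up to 10.15), Ndufaf8 (7.61, others up to 7.05) and Ndufs8 (8.36, others up to 7.92). Cox5a in WT was low in F2, at 8.85. Ndufa1 was high in Ahrr-/- M1, at 8.73, and Cox6b2 in Ahrr-/- F1, at 6.18. Genes near a count of 0 gave single higher values for Cox6a2 in Ahr-/- M1 (5.29), Ndufa4l2 in WT M2 (5.31) and Ahr-/- M3 (5.40), Cox8c in WT F3 (5.38) and Cox4i2 in Ahrr-/- M1 (5.67). The summed pancreatic acinar genes were high in Ahr-/- M1, at 621, and in Ahrr-/- M1, at 2349. The summed mast cell genes were high in Ahrr-/- F1, at 8530. The causes were not tested.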

How the results depend on the processing

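For WT against Ahr-/- the number of genes passing the limma test was 3, and 1 with no minimum mean, 1 with all 18 samples in the fit and 1 to 6 with a sample left out (6 without WT F2, 1 without WT F3 or Ahr-/- F1, F2 or M3). For Ahrr-/- against Ahr-/- it was 14, and 5 with no minimum mean, 5 with no sex covariate, 25 with a replicate block and 2 to 54 with a sample left out (2 without Ahr-/- F1, F2, M1, M2 or M3 or Ahrr-/- F3 or M3, 6 without Ahrr-/- M1, 28 without Ahrr-/- M2, 33 without Ahr-/- F3, 54 without Ahrr-/- F1). Leaving out Ahrr-/- F3, M1 and M3 together was added after seeing the data, and as these have the highest levels of their group it lowers the group by construction. It gave 0 genes with limma, 8 with an unadjusted p under 0.05, and a median of 0.10 for Ahrr-/- against Ahr-/-, and turned the median for WT against Ahrr-/- to 0.06. For sex the number was 1, and 0 with no minimum mean, 0 with no genotype covariate and 0 to 2 with a sample left out (2 without WT F1 or Ahrr-/- F3). With a sample left out, medians ran from 0.08 to 0.26 for WT against Ahr-/-, from -0.40 to -0.11 for WT against Ahrr-/- and from 0.32 to 0.57 for Ahrr-/- against Ahr-/-. The scalings turned none of these 3 medians. The samples per group are 6, cage and genotype coincide for the samples labelled Ahr-/-, and the causes of these shifts were not tested.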
